A study of Mus musculus with 15 samples.

Results

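The 10 genes described here are Phgdh, Psat1, Psph, Shmt1, Shmt2, Mthfd1, Mthfd1l, Mthfd2, Aldh1l2 and Slc1a4, which encode the serine synthesis enzymes, the folate enzymes that carry serine-derived carbon, and a serine transporter. They were chosen by name from the 41819 genes of the pterosin B experiment, where all 10 are listed, and 4 of them are among the 2275 genes listed for the knockout experiment. The choice was made because Phgdh was lower in KO and higher with pterosin B in these data, so the values of these 10 genes in those comparisons are given as descriptions, without a test.

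RNA was sequenced from 15 cultures of C57BL/6J mouse bone marrow monocytes, the precursors of bone-resorbing osteoclasts, with 3 libraries in each of 5 groups. M-CSF, a macrophage growth factor, was present throughout at 50 ng/ml, and for the first 2 days it was given alone. SCRP then had RANKL, the cytokine that drives osteoclast differentiation, at 50 ng/ml with pterosin B at 300 µM for 3 days, SCR had the same RANKL with vehicle for 3 days, and SC had vehicle and no RANKL. The time of harvest of SC is not given in the sources used here, so time in culture and RANKL cannot be told apart in SCR against SC. Pterosin B, found in bracken fern, is used to inhibit signalling by the salt-inducible kinase SIK3. KO cultures carried Rank-Cre/+ with Sik3 flox/flox, in which Cre is expressed from the Rank locus and deletes Sik3 in cells that express Rank, and had RANKL for 2 days. WT cultures are labelled wild type controls and were treated in the same way. The protocol names both C57BL/6J and Rank-Cre/+ animals as controls and does not say which gave the WT libraries. The labels do not say whether the libraries of a group came from separate animals, so the spread that the p-values measure may be technical.

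Cells make serine from the glycolytic intermediate 3-phosphoglycerate in a short chain of steps run by PHGDH, PSAT1 and PSPH. The SHMT enzymes move a carbon of serine onto folate, in the cytosol (SHMT1) or in mitochondria (SHMT2), and the MTHFD enzymes then carry that carbon to formate, which feeds purine and thymidylate synthesis. Many of these genes are known targets of ATF4, the transcription factor of the amino acid response, and mouse osteoclast precursors are known to draw on serine synthesis while they differentiate.

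The promoter windows of Phgdh, the gene on which the choice turned, and of Slc1a4, the only gene of the 10 with a motif match, are shown for orientation. Windows of 250 bases before to 50 bases after a gene's start were taken from RefSeq on GRCm38.p6 and were found for 9 of the 10 genes, all but Aldh1l2. Psat1 has windows for 2 starts. Phgdh is shown from chr3:98339920-98340219 and Slc1a4 from chr11:20332664-20332963, each on its minus strand and read 5′ to 3′, with the motif match in capitals.
Phgdh: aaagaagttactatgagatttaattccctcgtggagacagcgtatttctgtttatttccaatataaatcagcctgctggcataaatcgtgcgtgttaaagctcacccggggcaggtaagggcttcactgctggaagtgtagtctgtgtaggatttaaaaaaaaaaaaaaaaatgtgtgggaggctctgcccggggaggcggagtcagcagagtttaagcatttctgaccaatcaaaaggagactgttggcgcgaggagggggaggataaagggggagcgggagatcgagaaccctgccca
Slc1a4: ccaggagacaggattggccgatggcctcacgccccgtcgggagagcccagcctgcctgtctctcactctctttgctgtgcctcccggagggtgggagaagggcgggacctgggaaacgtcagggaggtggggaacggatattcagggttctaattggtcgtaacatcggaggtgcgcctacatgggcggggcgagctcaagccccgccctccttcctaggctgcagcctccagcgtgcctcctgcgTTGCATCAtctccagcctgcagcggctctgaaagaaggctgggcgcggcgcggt
The searched motifs were TGATGNAA, the C/EBP-ATF response element that ATF4 can bind, CACGTG, an E-box, and TGACGTCA, the cAMP response element, on both strands. They are present in 3.97%, 7.15% and 1.79% of all 32851 windows. The capitals in Slc1a4 are TTGCATCA, which is TGATGNAA read on the opposite strand, at chr11:20332710-20332717, with 4 bases before the start site and 4 after it. The other windows of these genes hold none of the 3 motifs, which says only that those letters are not within those 300 bases.

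Library depth was 40338706 to 49927591 exon reads in SCRP, 37138648 to 49610156 in SCR and 40152624 to 48431715 in SC. The totals implied by the deposited RPKM were 21267111 to 25932103 reads in KO and 22358396 to 25405494 in WT. Sik3 had 23.9, 17.6 and 19.4 CPM (reads scaled to library size) in KO, against 58.3, 59.4 and 56.0 CPM in WT. The summed level of 10 osteoclast markers (Acp5, Ctsk, Calcr, Dcstamp, Ocstamp, Atp6v0d2, Mmp9, Itgb3, Oscar, Nfatc1) was 1026 to 1351 CPM in SCRP, 5399 to 5643 CPM in SCR and 72.3 to 74.7 CPM in SC, with Calcr at 0 in every SC library. That of 8 monocyte and macrophage markers was 10924 to 12547 CPM in SCRP, 7701 to 8928 CPM in SCR and 21922 to 24679 CPM in SC. Neutrophil markers (9 genes) summed to at most 15.5 CPM in SCRP, 22.6 to 24.0 CPM in SCR and 28.0 to 49.5 CPM in SC, and Ly6g was at 0 in SCRP and SCR. In the same 9 libraries, stromal and osteoblast markers (5 genes, Bglap at 0 throughout) summed to at most 15.7 CPM and lymphoid markers (5 genes, Cd3e at 0 throughout) to at most 0.367 CPM. Hepatocyte markers (5 genes, mostly Afp) summed to 3.39 to 6.73 CPM in SCRP, 7.15 to 9.30 CPM in SCR and 10.7 to 12.9 CPM in SC. SCRP replicate 3 stood apart, with 18.1 CPM of the red cell gene Hba-a1 and, of the liver genes, 1.91 CPM of Alb and 0.778 CPM of Ttr, while no other library passed 0.1 CPM for any of these 3 genes. For SCRP against SCR, the fold changes of the 10 genes and the counts of the gene lists are given with and without SCRP replicate 3. Single genes of the lists, comparisons of SCRP with SC, level orders, ratios and correlations are given with that library only.

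In KO, the first enzyme of serine synthesis was low. Phgdh (ENSMUSG00000053398, GRCm38 chromosome 3, 98313170 to 98339990, minus strand) encodes phosphoglycerate dehydrogenase, which commits 3-phosphoglycerate to serine. It had 5.03, 4.04 and 4.78 CPM in KO, against 16.8, 17.5 and 15.9 CPM in WT. Every KO library lay below every WT library. The log2 fold change was -1.86 ± 0.11 (SE), a level 3.63-fold lower in KO, and the deposited RPKM averaged 1.86 ± 0.207 in KO and 6.73 ± 0.329 in WT (SD, n = 3 each).

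The last enzyme of the chain and 2 genes beyond it were low in KO as well. Psph (ENSMUSG00000029446, chromosome 5, 129765558 to 129787449, minus strand), the phosphatase that releases serine, had 10.6, 9.47 and 10.6 CPM in KO and 21.9, 21.3 and 21.7 CPM in WT, a log2 fold change of -1.08 ± 0.09. It was the smallest of the 4 differences and the one with the least spread among WT libraries. Aldh1l2 (ENSMUSG00000020256, chromosome 10, 83487450 to 83534140, minus strand), a mitochondrial enzyme that turns formyl-folate to CO2 with a gain of NADPH, had 1.18, 0.912 and 0.656 CPM in KO and 5.28, 4.96 and 4.49 CPM in WT. That was the widest of the 4 differences, with a log2 fold change of -2.44 ± 0.23 and only 17 to 25 reads per KO library. Slc1a4 (ENSMUSG00000020142, chromosome 11, 20302180 to 20332713, minus strand), a neutral amino acid transporter that carries serine, had 3.53, 2.54 and 2.39 CPM in KO and 6.26, 7.66 and 8.78 CPM in WT, a log2 fold change of -1.44 ± 0.17.

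For all 4 genes the KO and WT libraries did not overlap. The knockout table lists only genes with a fold of at least 2 and a false discovery rate under 0.05 by the authors' own test, and 97.5% of the 1773 listed genes that could be tested had no overlap, so the count says nothing particular about these genes. The SEs of KO against WT were estimated from such listed genes alone and may be too small. The remaining 6 genes, Psat1, Shmt1, Shmt2, Mthfd1, Mthfd1l and Mthfd2, are not among the listed genes and were not analysed here for KO. The 10 osteoclast markers summed to 3356 to 3563 CPM in KO and 13974 to 14431 CPM in WT, and the 4 listed macrophage markers (Adgre1, Mertk, Fcgr1, Lyz2) to 18823 to 19998 CPM in KO and 6912 to 7393 CPM in WT. S100a8, the only neutrophil marker listed there, had 12.3 to 15.2 CPM in KO and 5.86 to 7.96 CPM in WT, and the 2 listed lymphoid markers (Cd79a, Nkg7) summed to 0.376 to 0.872 CPM in KO and 0.0 to 0.133 CPM in WT. Each listed marker had passed the authors' filter, so it was bound to differ between KO and WT. The macrophage markers Csf1r, Cd68, Itgam and Cx3cr1 and most neutrophil and lymphoid markers are not listed, so these sums do not describe the full marker sets. In bulk RNA, fewer cells of a type and less RNA per cell cannot be told apart, and the part of these marker differences in the 4 genes was not tested.

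**Figure D1:**
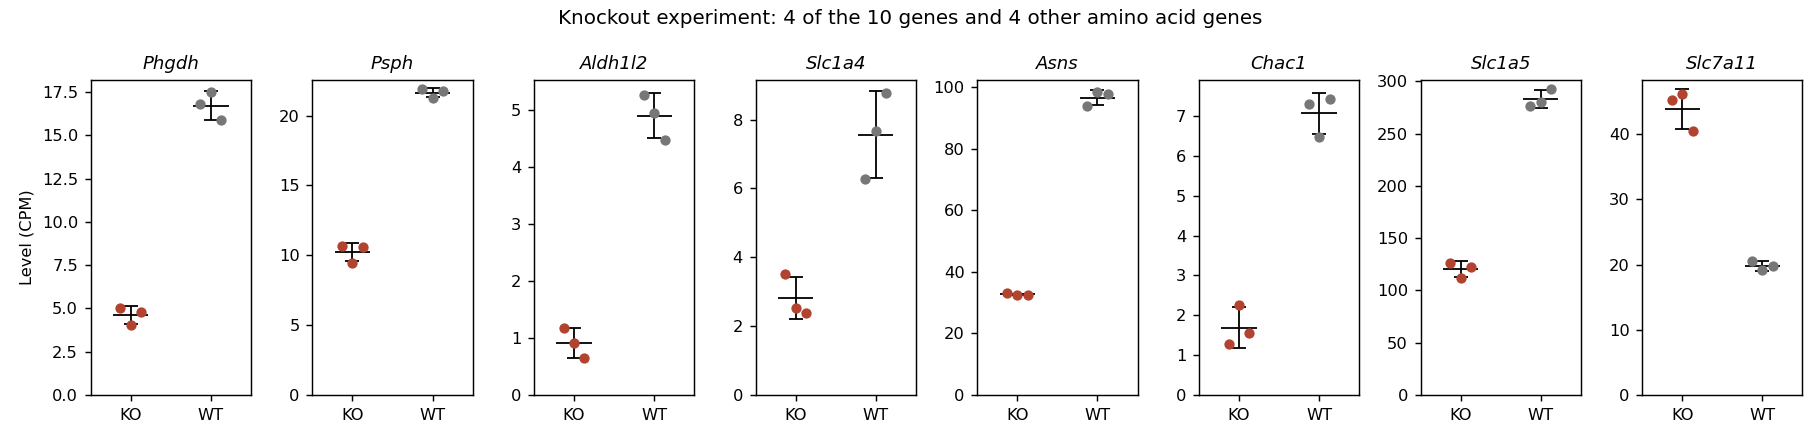
CPM (vertical axis, from 0) in each of the 3 KO and 3 WT libraries for Phgdh, Psph, Aldh1l2, Slc1a4 and 4 other amino acid genes of the knockout table, with the group mean (bar) and SD (whiskers). All 4 serine and one-carbon genes, Asns, Chac1 and Slc1a5 are lower in KO, and Slc7a11 is higher in KO, at 43.9 CPM against 19.8 CPM in WT.

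With pterosin B, Phgdh was higher. It had 17.3, 18.8 and 16.6 CPM in SCRP, 7.54, 6.07 and 6.71 CPM in SCR and 3.79, 4.80 and 5.95 CPM in SC. The SCRP libraries lay above all others, and the SCR libraries lay above all SC libraries by a narrow margin. The log2 fold change of SCRP over SCR was 1.37 ± 0.14, a level 2.58-fold higher, and it was 1.41 ± 0.16 without SCRP replicate 3. The mean level was 3.62 times higher in SCRP than in SC, so the highest Phgdh level of this experiment was in RANKL-treated cultures with pterosin B, where osteoclast markers were below those of SCR.

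Slc1a4 had the next largest difference. It had 6.96, 7.72 and 8.05 CPM in SCRP, 4.14, 4.01 and 6.36 CPM in SCR and 1.40, 1.34 and 1.38 CPM in SC. SCR replicate 3 lay well above the other SCR libraries and still below every SCRP library. The log2 fold change of SCRP over SCR was 0.64 ± 0.19, or 0.60 without SCRP replicate 3 and 0.90 without SCR replicate 3.

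The mitochondrial carbon enzymes Shmt2 and Mthfd2 were slightly higher in SCRP. Shmt2 (ENSMUSG00000025403, chromosome 10, 127517123 to 127522444, minus strand) had 203, 176 and 185 CPM in SCRP, 166, 152 and 161 CPM in SCR and 68.1, 67.2 and 66.2 CPM in SC. Mthfd2 (ENSMUSG00000005667, chromosome 6, 83305691 to 83325908, minus strand), a mitochondrial methylene-folate dehydrogenase, had 118.2, 126.3 and 120.0 CPM in SCRP, 117.9, 106.2 and 111.6 CPM in SCR and 50.8, 49.1 and 55.2 CPM in SC. Their log2 fold changes of SCRP over SCR were 0.24 ± 0.05 and 0.12 ± 0.05, and for Mthfd2 the lowest SCRP and the highest SCR library almost touched.

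The formate-producing Mthfd1l and the cytosolic Mthfd1 were slightly lower in SCRP. Mthfd1l (ENSMUSG00000040675, chromosome 10, 3973118 to 4167081, plus strand), the mitochondrial formyl-folate synthetase, had 53.1, 52.02 and 53.6 CPM in SCRP, 63.7, 57.00 and 63.3 CPM in SCR and 32.6, 36.6 and 38.1 CPM in SC. Mthfd1 (ENSMUSG00000021048, chromosome 12, 76255298 to 76319803, plus strand), which runs the cytosolic steps of the same carbon route, had 97.99, 96.5 and 95.5 CPM in SCRP, 110.5, 108 and 105 CPM in SCR and 67.3, 73.1 and 67.9 CPM in SC. The log2 fold changes of SCRP over SCR were -0.21 ± 0.06 for Mthfd1l and -0.16 ± 0.05 for Mthfd1, and neither gene's SCRP libraries reached the SCR range.

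The remaining 4 genes overlapped between SCRP and SCR. Psat1 (ENSMUSG00000024640, chromosome 19, 15904678 to 15947337, minus strand), the transaminase between Phgdh and Psph, had 133, 119.9 and 134 CPM in SCRP, 125, 117 and 123 CPM in SCR and 82.7, 93.7 and 94.8 CPM in SC. Psph had 13.4, 16.3 and 12.9 CPM in SCRP, 15.2, 14.2 and 13.3 CPM in SCR and 10.1, 11.4 and 9.55 CPM in SC. These 2 enzymes work in the same chain as Phgdh, and their log2 fold changes of SCRP over SCR were 0.08 ± 0.06 for Psat1 and -0.00 ± 0.11 for Psph. Shmt1 (ENSMUSG00000020534, chromosome 11, 60788104 to 60811718, minus strand), the cytosolic serine hydroxymethyltransferase, had 32.8, 29.1 and 30.3 CPM in SCRP, 32.99, 31.5 and 31.3 CPM in SCR and 10.2, 13.3 and 12.4 CPM in SC, a log2 fold change of -0.06 ± 0.09 for SCRP over SCR. Aldh1l2 had 1.84, 1.14 and 2.59 CPM in SCRP, 1.78, 1.95 and 1.58 CPM in SCR and 0.613, 0.577 and 0.444 CPM in SC. Its SCRP libraries spread more widely than the SCR libraries, and the log2 fold change of SCRP over SCR was 0.07 ± 0.35, or -0.25 ± 0.39 without SCRP replicate 3.

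SCRP and SCR did not overlap for 6 of the 10 genes, against 49.3% of all 13650 genes tested (37.8% were called in either direction), and the same number was found without SCRP replicate 3. These shares, and those given below beside the gene lists, are for all 9 libraries. Fewer genes were called in SCRP against SCR without SCRP replicate 3 (4594, against 5156), so counts without that library are not to be read against these shares. Without that library the log2 fold changes were 0.05 for Psat1, 0.06 for Psph, -0.04 for Shmt1, 0.25 for Shmt2, -0.15 for Mthfd1, -0.22 for Mthfd1l and 0.13 for Mthfd2. Higher in SCRP were Phgdh, Shmt2, Mthfd2 and Slc1a4, and lower were Mthfd1 and Mthfd1l. The sums of the osteoclast, macrophage and neutrophil markers given above also differed between SCRP and SCR without overlap, and their part in the 10 genes was not tested. Most of the macrophage sum was Lyz2, at 8103 to 9548 CPM in SCRP and 4976 to 6003 CPM in SCR. Adgre1, Mertk and Cx3cr1 were also higher in SCRP, while Csf1r, Cd68 and Fcgr1 overlapped between the groups and Itgam was lower in SCRP. Since Phgdh in this comparison was part of the choice of genes, nothing is read from the count. The median log2 fold change of the 10 genes was 0.08, against 0.00 over all genes tested. Each of the 10 genes was higher in every SCRP library than in every SC library. The share of all genes without overlap between SCRP and SC was not computed, so nothing is read from that.

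**Figure D2:**
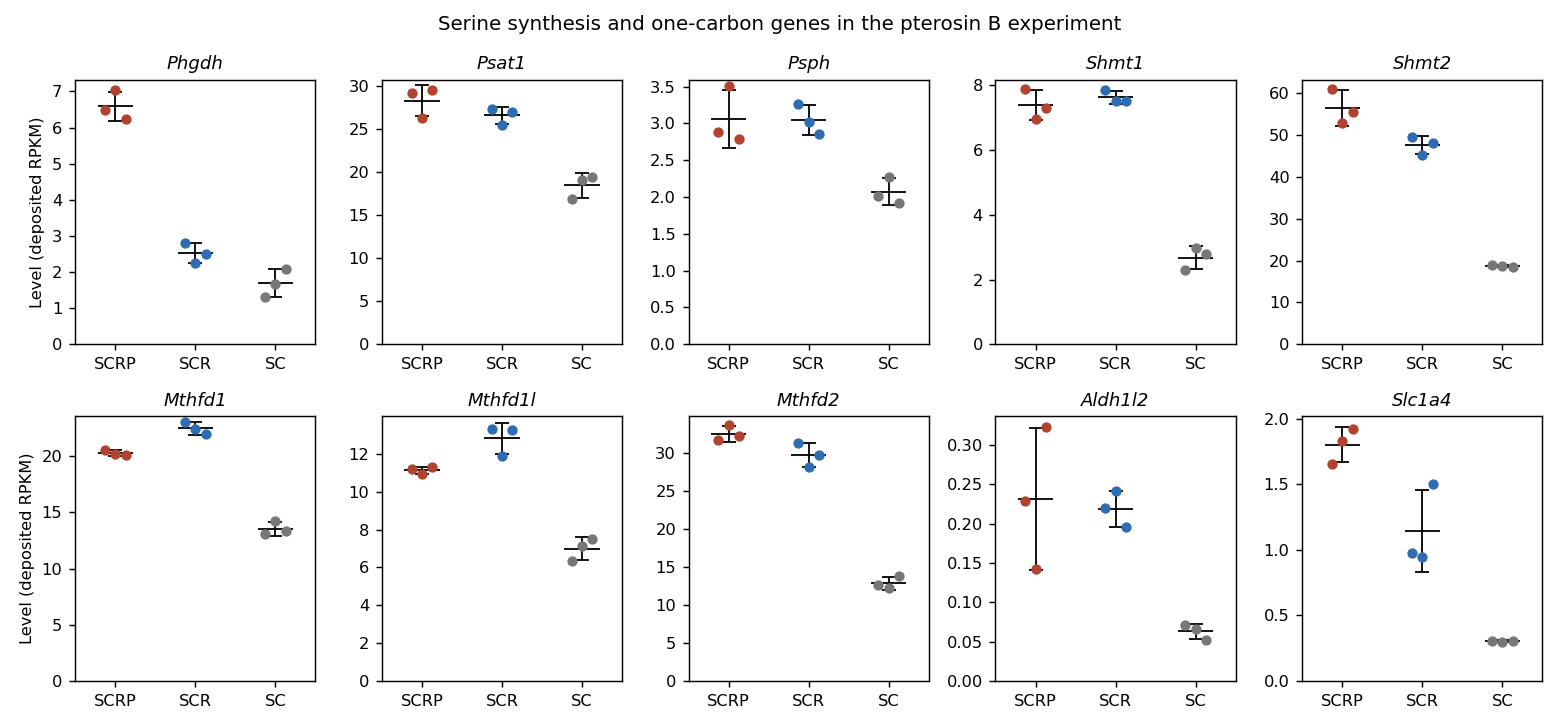
Deposited RPKM (vertical axis, from 0) of the 10 genes in the 3 SCRP, 3 SCR and 3 SC libraries, with the group mean (bar) and SD (whiskers). Phgdh alone shows its widest step between SCRP (6.58 RPKM) and SCR (2.53 RPKM); for the other genes the wider step is between SCR and SC.

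The 4 genes with values in both experiments differ in how the 2 comparisons line up. For Phgdh the log2 fold change was -1.86 in KO against WT and 1.37 in SCRP against SCR, and for Slc1a4 it was -1.44 and 0.64. For Psph it was -1.08 and -0.00, and for Aldh1l2 -2.44 and 0.07. RANKL had been given for 2 days in KO and WT and for 3 days in SCRP and SCR, the experiments share no library, and the difference between the comparisons was not tested.

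**Figure D3:**
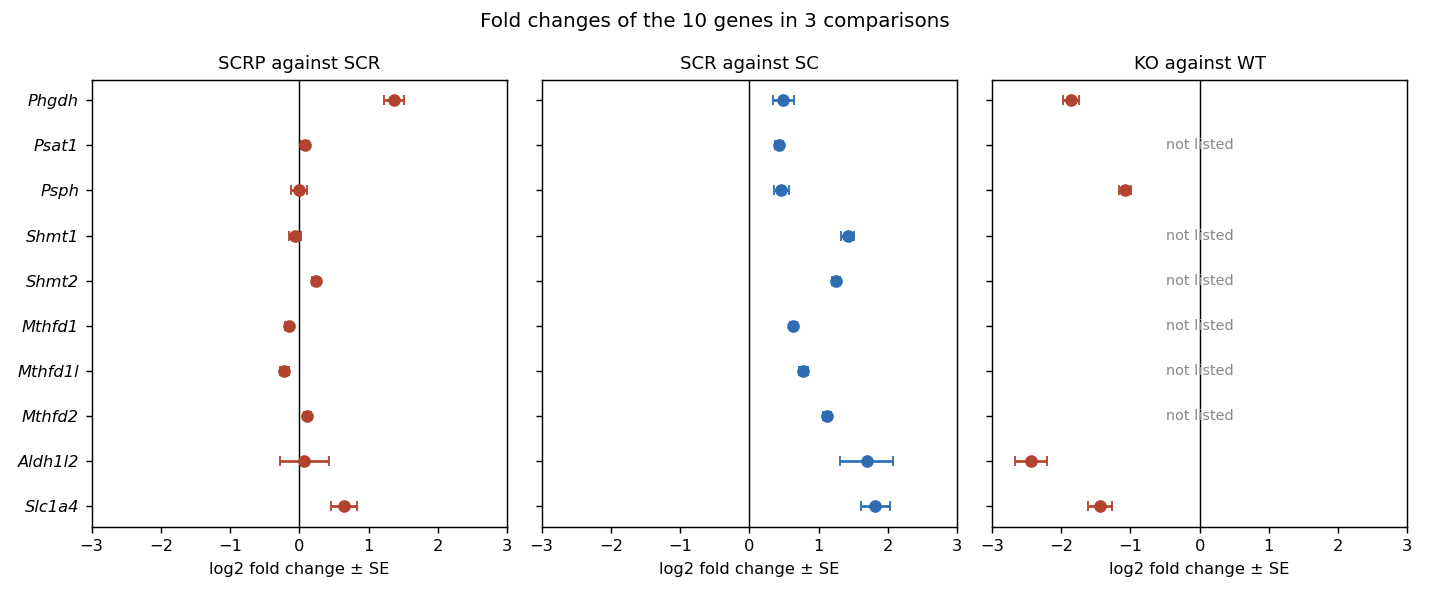
Log2 fold change (horizontal axis) with its SE for the 10 genes in SCRP against SCR, SCR against SC and KO against WT. The SCR against SC panel lies wholly to the right of 0, from 0.43 to 1.82; the KO panel holds 4 genes, all to the left of 0, and marks the 6 genes that are not in the knockout table. The SEs in the KO panel come from a fit of selected genes and may be too small.

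SCR was compared with SC to ask what differs with RANKL. This comparison was not used to choose the genes, but it shares the SCR libraries with SCRP against SCR, which was. All 10 genes rose in SCR by edgeR's quasi-likelihood test with Benjamini-Hochberg adjustment over 13650 genes, and none overlapped between the groups. Of all genes tested, 30.7% were called higher and 59.1% were called in either direction, and 65.4% did not overlap. The 8064 genes called in SCR against SC were 4190 higher and 3874 lower, or 5210 higher and 3145 lower without scaling factors. The median log2 fold change was 0.95 for the 10 genes and 0.02 for all genes, and the 10 values ran from 0.43 to 1.82. Over the same groups, the osteoclast markers summed to 5399 to 5643 CPM in SCR and 72.3 to 74.7 CPM in SC, and the macrophage markers to 7701 to 8928 CPM in SCR and 21922 to 24679 CPM in SC. The part of that shift in the 10 genes was not tested.

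The 3 genes of the serine synthesis chain had the smallest folds. Psat1 averaged 122 ± 4.34 CPM in SCR and 90.4 ± 6.67 CPM in SC (SD, n = 3 each), a 1.35-fold rise with a log2 fold change of 0.43 ± 0.06 (edgeR adjusted p = 9.34e-06). Psph averaged 14.2 ± 0.983 CPM in SCR and 10.3 ± 0.943 CPM in SC, a log2 fold change of 0.46 ± 0.11 (edgeR adjusted p = 0.0020). Phgdh averaged 6.77 ± 0.733 CPM in SCR and 4.84 ± 1.08 CPM in SC, a log2 fold change of 0.49 ± 0.15 (edgeR adjusted p = 0.00916). The call for Phgdh rests on SC replicate 1, without which the log2 fold change was 0.34 with an edgeR adjusted p of 0.0524, and over all alternatives tried it ran from 0.34 to 0.67. Chain enzymes therefore differed by 1.35-fold to 1.40-fold between SCR and SC.

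The serine hydroxymethyltransferases and the mitochondrial dehydrogenase rose more. Shmt1 rose 2.67-fold (log2 fold change 1.42 ± 0.09, edgeR adjusted p = 9.62e-10) and Shmt2 rose 2.38-fold (1.25 ± 0.06, edgeR adjusted p = 7.66e-12). Mthfd2 rose 2.17-fold (1.12 ± 0.06, edgeR adjusted p = 3.90e-11). The formate-side enzymes Mthfd1l and Mthfd1 lay between, at 1.72-fold (log2 fold change 0.78 ± 0.07, edgeR adjusted p = 2.80e-08) and 1.55-fold (0.63 ± 0.05, edgeR adjusted p = 6.68e-09). The folds of Slc1a4 and Aldh1l2 were the largest of the 10 and came from the lowest levels. Slc1a4 rose 3.52-fold (log2 fold change 1.82 ± 0.21, edgeR adjusted p = 1.08e-06), and Aldh1l2 rose 3.23-fold (1.69 ± 0.38, edgeR adjusted p = 0.00102), with 74 to 88 reads per SCR library and 18 to 28 per SC library.

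Intron reads, which come mainly from RNA not yet spliced, were counted separately. Of the 10 genes, 8 rose in SCR in intron reads, where 16.3% of 12665 genes tested were called higher and 31.6% in either direction. Psat1 rose by a log2 fold change of 0.48 ± 0.11 (edgeR adjusted p = 0.00166), Shmt2 by 1.51 ± 0.16 (2.23e-08), Mthfd1l by 0.64 ± 0.16 (0.00264) and Mthfd2 by 1.03 ± 0.22 (5.91e-04). Slc1a4 rose by 1.83 ± 0.56 (edgeR adjusted p = 0.0121), Psph by 0.78 ± 0.26 (0.0214), Mthfd1 by 0.55 ± 0.17 (0.0122) and Shmt1 by 0.41 ± 0.15 (0.0382). Each of these last 4 calls was lost in 2 or 3 of the fits without 1 library, and 5 of the 10 genes were called both without SCR replicate 1 and without SC replicate 2.

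The genes that were not called in intron reads were Phgdh and Aldh1l2, which had few such reads. Phgdh had 35, 44 and 37 intron reads in SCRP, 25, 3 and 23 in SCR and 2, 8 and 10 in SC. The SCRP libraries lay above all others, while SCR replicate 2 lay within the SC range. The log2 fold change of SCR over SC was 1.03 ± 0.71 for Phgdh (edgeR adjusted p = 0.293) and 1.26 ± 0.83 for Aldh1l2 (edgeR adjusted p = 0.265), so a difference was not detectable at this depth. Shmt1 was the gene whose 2 readouts stood farthest apart among the called genes, with 1.42 ± 0.09 in exon reads and 0.41 ± 0.15 in intron reads. The difference between them was not tested, and Smcr8 overlaps Shmt1 on the opposite strand.

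**Figure D4:**
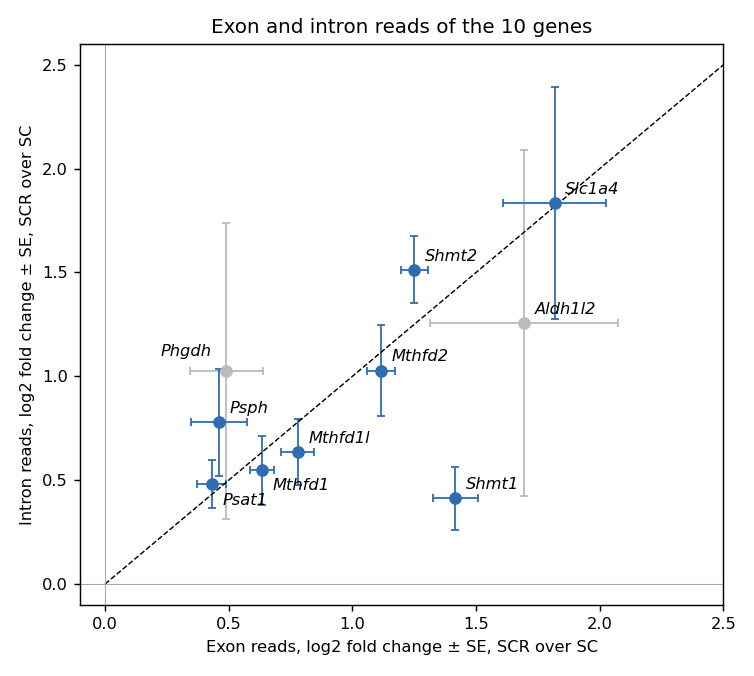
Log2 fold change of SCR over SC in exon reads (horizontal axis) against intron reads (vertical axis) for the 10 genes, each with its SE; the dashed line marks equal change, blue points passed the intron test and grey points did not. Shmt1 lies farthest below the line, at 1.42 in exon reads and 0.41 in intron reads, and Phgdh and Aldh1l2 have the longest vertical bars.

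Overlapping genes and shared sequence bear on some of these counts, because the strand that was counted is not given in the sources used here. Psph overlaps Cct6a on the opposite strand, a chaperonin gene with 412 ± 8.75 CPM in SCRP, 479 ± 3.81 CPM in SCR and 287 ± 4.26 CPM in SC (SD, n = 3 each), and its reads cannot be told apart from those of Psph where they overlap. Cct6a rose in SCR against SC, with a log2 fold change of 0.74 (edgeR adjusted p = 3.90e-11). D10Wsu102e, which overlaps Aldh1l2, rose by 0.24 (edgeR adjusted p = 6.57e-04), at 68.3 CPM in SCR and 57.9 CPM in SC. Smcr8, opposite Shmt1, stood at 125 CPM in SCR and 126 CPM in SC. Uniquely mapped reads made up 95.0% of the exon reads of Phgdh and 93.4% of those of Aldh1l2, and at least 99.5% for each of the other 8 genes.

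Per length of exon, Shmt2 was the most abundant of the 10 genes in each group and Aldh1l2 the least. In SCRP the mean deposited RPKM was 56.5 for Shmt2, 32.5 for Mthfd2, 28.3 for Psat1, 20.3 for Mthfd1, 11.1 for Mthfd1l, 7.39 for Shmt1, 6.58 for Phgdh, 3.06 for Psph, 1.80 for Slc1a4 and 0.231 for Aldh1l2. Shmt1 and Phgdh were the only neighbours in that order whose libraries overlapped. In SCR the order was the same except that Psph (3.04 RPKM) stood above Phgdh (2.53 RPKM), and no neighbours overlapped. In SC, Shmt2 (18.7 RPKM) and Psat1 (18.4 RPKM) overlapped, as did Mthfd1 (13.6 RPKM) and Mthfd2 (12.9 RPKM), and Psph (2.07 RPKM) and Phgdh (1.69 RPKM).

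Ratios within a library describe the balance between enzymes of the same route. The RPKM ratio of Psat1 to Phgdh was 4.31 ± 0.520 in SCRP, 10.6 ± 0.780 in SCR and 11.2 ± 1.74 in SC (SD, n = 3 each), and the SCRP libraries lay below all others while SCR and SC overlapped. The ratio of the mitochondrial Mthfd2 to the cytosolic Mthfd1 was 1.60 ± 0.0647 in SCRP, 1.32 ± 0.0585 in SCR and 0.951 ± 0.0908 in SC, with no overlap between the groups. The ratio of the mitochondrial Shmt2 to the cytosolic Shmt1 was 7.65 ± 0.0847 in SCRP, 6.24 ± 0.200 in SCR and 7.09 ± 1.06 in SC, and the SC libraries overlapped both other groups. These ratios are descriptions, without a test.

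The genes whose log2 CPM followed Phgdh most closely over the 9 libraries of the pterosin B experiment were Lmo4 (Pearson r = 0.993), Rad54b (0.987), Jmjd1c (0.986), Phf19 (0.984) and Faap100 (0.983), out of 13650 genes. Rad54b encodes a DNA repair protein, Jmjd1c a member of the histone demethylase family, Phf19 a Polycomb-associated protein and Lmo4 a LIM-domain protein. Lmo4 had 50.5 ± 1.67 CPM in SCRP, 37.5 ± 0.671 CPM in SCR and 34.2 ± 2.54 CPM in SC (SD, n = 3 each), a smaller range than that of Phgdh. Among the other 9 genes of the set, Slc1a4 was the closest (r = 0.841, rank 697), followed by Psat1 (0.778) and Shmt2 (0.777), and Mthfd1 was the farthest (0.503). These values are a description over libraries that share group and depth.

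Genes around serine and folate moved in both directions. Of 25 tested neighbours, 7 rose and 10 fell in SCR against SC, and 3 rose and 7 fell in SCRP against SCR, beside 30.7% higher and 28.4% lower among all genes tested in SCR against SC, and 17.9% higher and 19.9% lower in SCRP against SCR. In SCR against SC the glycine cleavage subunit gene Dld (196 CPM in SCR, 113 CPM in SC, log2 fold change 0.80, edgeR adjusted p = 3.10e-10) and the folate carrier gene Slc19a1 (26.1 CPM in SCR, 13.7 CPM in SC, log2 fold change 0.93, edgeR adjusted p = 1.35e-07) rose. Mthfs, which recycles formyl-folate, Folr2, a macrophage folate receptor, and Ggh, which trims folate tails, fell by 1.48, 1.37 and 0.94 on the log2 scale (edgeR adjusted p of 3.07e-08, 2.41e-10 and 1.78e-09). In SCRP against SCR, Serinc3 rose by 0.67 (edgeR adjusted p = 3.66e-09), while Folr2, Dld, Aldh1l1 and Slc46a1 fell by 0.62, 0.52, 0.40 and 0.33 (edgeR adjusted p of 2.06e-05, 2.88e-07, 0.0380 and 0.0441). Aldh1l1 is the cytosolic counterpart of Aldh1l2. Without SCRP replicate 3, 2 of the 25 rose and 5 fell. The medians were -0.07 in SCR against SC and -0.09 in SCRP against SCR.

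The methionine cycle and purine genes sit downstream of the same carbon. Of 14 tested genes of the methionine cycle and transsulfuration, 7 rose and 3 fell in SCR against SC (30.7% and 28.4% of all genes), with a median log2 fold change of 0.16. Mtr, methionine synthase, and Ahcy, which clears S-adenosylhomocysteine, rose by 0.80 and 0.83 (edgeR adjusted p of 6.93e-10 and 3.19e-10). Ahcyl2, an Ahcy-like protein gene, and Gclm and Gclc, the subunits of the enzyme that starts glutathione synthesis, fell by 1.08, 0.71 and 0.62 (edgeR adjusted p of 4.48e-12, 4.72e-10 and 6.83e-08). Between SCRP and SCR, where 17.9% of all genes rose and 19.9% fell, 3 rose (Gclm by 0.54, Ahcyl2 by 0.41 and Gclc by 0.22) and Gss, glutathione synthetase, fell by 0.42, with edgeR adjusted p of 6.91e-08, 2.83e-06, 0.00559 and 2.52e-04 and a median of 0.04, and 3 rose and 1 fell without SCRP replicate 3 as well.

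Of 16 purine and thymidylate genes, 12 rose and 3 fell in SCR against SC, beside 30.7% and 28.4% of all genes, with a median of 0.30. Impdh2, which commits IMP to guanine nucleotides, rose by 1.20 (187 CPM in SCR, 81.5 CPM in SC, edgeR adjusted p = 1.39e-12). Ppat, Gart and Pfas of the de novo purine chain rose by 0.68, 0.66 and 0.64 (edgeR adjusted p of 1.99e-08, 1.28e-09 and 1.97e-07), and the salvage gene Hprt fell by 0.87 (edgeR adjusted p = 5.93e-11). Between SCRP and SCR, 8 rose and 1 fell without SCRP replicate 3. With all 9 libraries, 8 rose and 2 fell, beside 17.9% and 19.9% of all genes, with a median of 0.11. The largest were Adss (0.43), Tk1 (0.41), Hprt (0.30), Prps2 (0.27) and Prps1 (-0.23), with edgeR adjusted p of 3.05e-05, 8.95e-06, 6.77e-05, 0.00290 and 0.0402.

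Genes of the ATF4 and amino acid response include sensors, transcription factors and tRNA synthetases. Of 28 tested, 17 rose and 6 fell in SCR against SC, while 30.7% of all genes rose and 28.4% fell, and their median was 0.24. Chac1, which degrades glutathione and is induced by ATF4, had 14.1 ± 4.14 CPM in SCR and 0.689 ± 0.312 CPM in SC (SD, n = 3 each), a log2 fold change of 4.37 (edgeR adjusted p = 9.70e-10). Asns, asparagine synthetase, had 70.8 ± 2.66 CPM in SCR and 17.8 ± 3.27 CPM in SC, a log2 fold change of 1.99 (edgeR adjusted p = 1.03e-11). Vldlr and Mars, the methionyl-tRNA synthetase gene, rose by 2.28 and 1.05 (edgeR adjusted p of 5.60e-06 and 1.41e-11), and the stress factor gene Atf3 fell by 2.26 (edgeR adjusted p = 2.65e-13).

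In SCRP against SCR without SCRP replicate 3, 6 of these 28 genes rose and 8 fell. With all 9 libraries, 6 rose and 9 fell, while 17.9% of all genes rose and 19.9% fell. The median of the list was -0.01. Trib3, an inhibitor of ATF4 that ATF4 itself induces, rose by 0.99, Atf3 by 0.95, Pck2, the mitochondrial phosphoenolpyruvate carboxykinase, by 0.55 and Cebpb by 0.54 (edgeR adjusted p of 0.00119, 5.30e-08, 2.79e-04 and 8.59e-04). Chac1 fell by 1.01, at 7.06 ± 1.57 CPM in SCRP and 14.1 ± 4.14 CPM in SCR (SD, n = 3 each; edgeR adjusted p = 0.00188). Asns rose by 0.31 (edgeR adjusted p = 0.00799). The genes of this list that fell besides Chac1 were the tRNA synthetases Gars, Sars, Wars, Nars and Eprs, the tRNA exporter Xpot, Eif2ak3 and Ppp1r15a.

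Amino acid transporters other than Slc1a4 were divided. Of 17 tested, 7 rose and 7 fell in SCR against SC (median 0.06), and 8 rose and 5 fell in SCRP against SCR (median 0.08), or 7 and 5 without SCRP replicate 3. The shares of all genes were 30.7% higher and 28.4% lower in SCR against SC, and 17.9% higher and 19.9% lower in SCRP against SCR. Slc1a5, the closest relative of Slc1a4 and a glutamine and serine carrier, had 242 ± 3.79 CPM in SCR and 65.1 ± 2.59 CPM in SC, a log2 fold change of 1.90 (edgeR adjusted p = 1.16e-13). The glycine transporter gene Slc6a9 and the large amino acid transporter gene Slc7a5 rose by 1.87 and 1.18 (edgeR adjusted p of 1.85e-07 and 8.55e-10), and the lysosomal Slc36a1 and the basic amino acid exchanger gene Slc7a7 fell by 1.44 and 1.41 (edgeR adjusted p of 1.75e-09 and 5.42e-09). With pterosin B, Slc1a5 fell by 0.66, at 154 ± 13.8 CPM in SCRP and 242 ± 3.79 CPM in SCR, while Slc1a4 was higher. The cystine carrier gene Slc7a11 rose by 0.87, Slc43a2 by 0.52 and Slc16a10 by 0.47, and Slc7a7 fell by 0.70. The edgeR adjusted p was 1.50e-07 for Slc1a5, 6.93e-07 for Slc7a11, 8.43e-07 for Slc43a2, 2.17e-07 for Slc16a10 and 1.04e-04 for Slc7a7.

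Glycolysis supplies the 3-phosphoglycerate that Phgdh uses. Of 15 tested genes of that list, 7 rose and 6 fell in SCR against SC (median -0.06), and 3 rose and 7 fell in SCRP against SCR (median -0.07), or 3 and 6 without SCRP replicate 3. Among all genes, 30.7% rose and 28.4% fell in SCR against SC, and 17.9% rose and 19.9% fell in SCRP against SCR. Hk2 fell to 65.2 CPM in SCR, against 131 CPM in SC, and Pfkm and Pkm fell by 0.39 and 0.29, while Myc, the growth factor-induced transcription factor kept with this list, rose by 0.60 and Hk1 by 0.33 (edgeR adjusted p of 3.01e-10, 0.00198, 8.01e-07, 4.17e-08 and 8.63e-06). With pterosin B, Hk1 fell by 0.73, Ldha by 0.43 and Tpi1 by 0.28, and Myc and Pfkl rose by 0.39 and 0.34 (edgeR adjusted p of 2.99e-09, 8.68e-08, 3.14e-05, 1.93e-05 and 5.29e-05).

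Cell cycle genes mark dividing cells, which use one-carbon units for DNA synthesis. The 21 genes of that list summed to 5102 to 5254 CPM in SCRP, 4404 to 4537 CPM in SCR and 4048 to 4279 CPM in SC. Between SCRP and SCR, 12 rose and 0 fell without SCRP replicate 3. With all 9 libraries, 15 rose and 1 fell, beside 17.9% higher and 19.9% lower among all genes, with a median of 0.22. The largest were E2f1 (0.43), Aurkb (0.38), Mcm3 (0.35), Mcm7 (0.33) and Cdk1 (0.31), with edgeR adjusted p of 3.89e-06, 2.65e-04, 4.78e-06, 3.52e-05 and 4.57e-05. In SCR against SC, 13 rose and 4 fell (30.7% and 28.4% of all genes), with a median of 0.14, and the largest were Pcna (-0.76), Cdc20 (0.75), Bub1 (0.61), Aurka (0.47) and Ccnb1 (0.46), with edgeR adjusted p of 8.98e-11, 7.48e-08, 2.03e-06, 3.37e-06 and 2.52e-06. The part of the cell cycle difference in the 10 genes was not tested.

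The knockout table lists 13 further genes from these lists, 5 higher and 8 lower in KO, beside 1053 higher and 1222 lower among all its genes. Lower in KO were Asns (32.7 ± 0.231 CPM in KO, 96.6 ± 2.46 CPM in WT), Chac1 (1.69 ± 0.511 CPM in KO, from only 27 to 57 reads per library, and 7.06 ± 0.525 CPM in WT), Slc1a5 (120.2 ± 7.51 CPM in KO, 283 ± 8.37 CPM in WT) and Slc6a9 (4.78 ± 0.300 CPM in KO, 16.4 ± 1.30 CPM in WT, with SD, n = 3 each). Their log2 fold changes were -1.56 ± 0.05, -2.05 ± 0.18, -1.24 ± 0.05 and -1.78 ± 0.11. Higher in KO were Slc7a11 (43.9 ± 3.05 CPM in KO, 19.8 ± 0.751 CPM in WT), Slc7a7 (41.4 ± 3.13 CPM in KO, 17.6 ± 0.680 CPM in WT), Slc36a1 (79.6 ± 2.69 CPM in KO, 32.7 ± 1.25 CPM in WT) and Folr2 (88.4 ± 6.71 CPM in KO, 40.4 ± 0.625 CPM in WT), with log2 fold changes of 1.15 ± 0.07, 1.23 ± 0.07, 1.28 ± 0.05 and 1.13 ± 0.06. Of the remaining 5 genes, Cth, Gldc, Sdsl and Slc7a3 were lower in KO and Gnmt was higher, all at means of at most 1.20 CPM in both groups.

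Gldc, the glycine decarboxylase that makes folate-bound carbon from glycine, was measured at a very low level. It had 0.206 ± 0.0577 CPM in KO and 0.787 ± 0.295 CPM in WT, with 4 to 7 reads per KO library and 10 to 25 per WT library. In the pterosin B experiment it had 0.0854 ± 0.0374 CPM in SCRP, 0.857 ± 0.270 CPM in SCR and 0.0660 ± 0.0338 CPM in SC (SD, n = 3 each), and it rose in SCR against SC (edgeR adjusted p = 3.05e-04) and fell in SCRP against SCR (edgeR adjusted p = 0.00112). Asns and Slc6a9 were lower in KO, while in SCRP against SCR Asns rose by 0.31 and Slc6a9 had a log2 fold change of -0.10 ± 0.17 (edgeR adjusted p = 0.686). Chac1 and Slc1a5 were lower in KO and fell in SCRP. Of the genes higher in KO, Slc7a11 rose in SCRP by 0.87 and Slc36a1 by 0.28 (edgeR adjusted p of 6.93e-07 and 0.0358), while Folr2 and Slc7a7 fell by 0.62 and 0.70 (edgeR adjusted p of 2.06e-05 and 1.04e-04). Cth, lower in KO, had a log2 fold change of -0.84 ± 0.55 in SCRP against SCR (edgeR adjusted p = 0.254), and Sdsl, also lower in KO, was too low to test there.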

How the data were processed

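Gene expression was measured by RNA sequencing of rRNA-depleted, directional libraries made from 500 ng of RNA, per the labels' protocols. Deposited counts are whole exon, unique exon and intron reads per gene, per the file headers, and were used as deposited. Of low counts, 75.3% to 79.0% were even in the pterosin B experiment and 45.5% to 50.7% in the knockout experiment. Whether both reads of a pair were counted in the pterosin B experiment was not tested. Read counts and depths may therefore not be in the same unit in the pterosin B and knockout experiments. Halved counts were fitted for exon reads of the pterosin B experiment only. Deposited RPKM values were computed by the authors per exon length and library total, per the file headers. The authors' deposited p-values after false discovery rate correction and the deposited score, a signed fold, come from the authors' EDGE test, per the file headers, and served only to describe which genes the knockout table lists. Positions and exon lengths are as deposited, on GRCm38 (mm10) per the submitters' processing notes, and equal those of GENCODE mouse release M21 for these genes once starts are counted from 1. The aligner, the counter and the counted strand are not stated there. Some series text speaks of embryonic livers, while all sample labels name bone marrow monocytes. A further 174 per-sample columns were not used.

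Counts were tested with edgeR 4.0.16 quasi-likelihood fits in R 4.3.3 after filterByExpr, two-sided, with Benjamini-Hochberg adjustment over all genes and calls at an adjusted p under 0.05. The 9 pterosin B libraries shared 1 fit with TMM scaling (13650 genes for exon reads, 12665 for intron reads, 6 residual degrees of freedom, common dispersions 0.0072 and 0.0338). The knockout table is a selected list, so library totals were recovered from counts, exon length and RPKM and no scaling factors were used (1773 genes, 4 residual degrees of freedom, common dispersion 0.00302). The spread was estimated from these selected genes alone, so the SEs of KO against WT may be too small. This differs from the fit planned for a full table. SE is the log2 fold change before edgeR's shrinkage, divided by the square root of F. The log2 fold changes given are those after shrinkage, which matters most at low counts. CPM were scaled with TMM totals for SCRP, SCR and SC, and with the recovered totals for KO and WT. The fits were tested on simulated data.

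The genes and gene lists were chosen with earlier results of these data known. Named genes are the 10 genes, up to 5 called genes per list and comparison with the largest fold among those averaging at least 1 CPM, list genes in the knockout table, the 5 genes most correlated with Phgdh, and Sik3; Asns and the synthetase genes in SCRP against SCR were named after their values were seen. Alternatives were other scalings, DESeq2 1.42.0, no filter, a replicate block, 2 groups alone, unique reads, each library left out and halved counts, the last chosen after seeing the data. Summaries were made in Python 3.11.15 (numpy 2.4.6, pandas 2.3.3) and plots in matplotlib 3.10.9.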

Additional observations from a re-analysis of the deposited data

How the results depend on the processing

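The 10 genes kept their direction in SCR against SC in exon reads under all 17 alternatives, and 10 were called under each but 1, the fit without SC replicate 1, where 9 were called (leave-one-out range 9 to 10). Of 170 log2 fold changes of single genes in that comparison, 169 kept their call. In SCRP against SCR, Slc1a4, Shmt2 and Psph moved by more than the SE of the main fit under at least 1 alternative. Slc1a4 reached 0.90 without SCR replicate 3, Shmt2 reached 0.18 and Psph reached -0.12. The other genes moved by less than that SE. In KO against WT, Psph and Slc1a4 moved by more than the SE of the main fit, and Slc1a4 reached -1.62. Psph reached -1.20 with TMM over the listed genes, a scaling that moved the median of all listed genes to -1.16, against -1.05. In intron reads, 5 to 8 of the 10 genes were called over the fits without 1 library, and 99 of 110 single values kept their call. No call reversed under any alternative run. Among values given without a test, the sign turned for Aldh1l2 (-0.25 to 0.33) and Psph (-0.12 to 0.06) in SCRP against SCR. The main fit gave 0.07 ± 0.35 for Aldh1l2 and -0.00 ± 0.11 for Psph. Genes called numbered 7567 to 8355 in SCR against SC and 4396 to 5393 in SCRP against SCR. In KO against WT they numbered 1757 to 2217. The listed genes had already passed the authors' own test of that comparison, so nothing is read from its counts. Without scaling factors the median of all genes in SCR against SC was 0.12, against 0.02, and the other lists' counts then differed most for the cell cycle genes (15 higher and 1 lower, against 13 and 4). Same-numbered libraries deviated together weakly at most (correlations of -0.06 to 0.12 over 9 pairs), and the main fits did not pair them. So few libraries per group cannot show whether same-numbered ones shared an animal or batch, which the labels do not give. With the replicate block, 8182 genes were called in SCR against SC, 5393 in SCRP against SCR and 1757 in KO against WT, 10 of the 10 genes in exon reads and 8 in intron reads. The causes of these changes were not tested.

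Depth limits Aldh1l2, with 18 to 133 exon reads per library in the pterosin B experiment and 17 to 118 in the knockout experiment, and the intron reads of Phgdh and Aldh1l2. The knockout table gives no value for genes outside it, so no statement on Psat1, the SHMT genes or the MTHFD genes in KO can be made.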
